A study of Mus musculus with 4 samples.

Results

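The genes described here build and load the class I molecules of the major histocompatibility complex (MHC). There are 7 of them. H2-K1 and H2-D1 encode the heavy chains of the classical class I molecules H-2K and H-2D, and B2m encodes beta-2 microglobulin, the light chain that every class I heavy chain pairs with. Tap1 and Tap2 encode the subunits of the transporter that carries peptides from the cytosol into the endoplasmic reticulum. Tapbp encodes tapasin, which bridges the transporter and an empty class I molecule. Nlrc5 encodes the transactivator of class I genes. The genes were taken by name, and all 7 were rows of both joint expression tables of the study, that is 7 of 15242 genes in the table of IL-17D knockout (KO) and wild-type (WT) cells and 7 of 12546 genes in the table of CD93-positive and CD93-negative cells.

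Class I molecules display peptides of proteins made inside a cell to CD8 T cells, and their absence is read by natural killer (NK) cells. Nearly all nucleated cells carry them, lymphocytes at high levels, and interferons raise the expression of the whole pathway. NLRC5 does not bind these promoters alone. It is held there by the RFX complex, CREB or ATF1 and NF-Y, which sit on a conserved row of boxes called the SXY module.

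The RNA came from ILC3s (group 3 innate lymphoid cells), which lack rearranged antigen receptors and make IL-22, taken from the small intestine of mice at steady state. There were 4 groups with 1 library each: KO ILC3s from mice without IL-17D (labelled Il17d-KO), WT ILC3s, and the CD93-positive and CD93-negative fractions of ILC3s from WT mice. The gate took live cells that were, among other markers, low for CD45, negative for CD3 and high for CD90.2, and the CD93 sort followed 12 h of culture with no stimulus. The labels attach the culture step to every library. The sources used here do not give whether KO and WT cells went through it, nor the age and strain of the mice or the number of animals per library. H2 genes differ strongly between mouse strains, so the missing strain bears on H2-K1 and H2-D1 in particular. With 1 library per group no difference has a replicate check, no test was run, and each interval covers counting error between 2 libraries only.

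The values are FPKM, fragments per kilobase of gene, scaled to the size of the library. The scaling total was 27002580 reads in KO ILC3s, against 26087274 in WT ILC3s, and 11712846 in CD93-positive ILC3s, against 11790580 in CD93-negative ILC3s. A gene counted as measured with at least 1 FPKM in either library of its pair (12376 genes in KO and WT, 10117 in CD93-positive and CD93-negative ILC3s), and a gap of at least 1 in log2(FPKM + 1), that is 2-fold, counted as apart. The tables of the pairs were made with different gene annotations, so no level is set across pairs.

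Promoter sequences are shown because NLRC5 acts through the SXY module. RefSeq windows of 300 bases (250 before to 50 after the start of transcription, build GRCm38.p6, the assembly that mm10 names) were held for 5 of the 7 members: B2m, H2-K1, H2-D1, Tap1 and Tapbp. Each was searched on both strands for 4 short motifs, and no matches of different motifs overlapped in these windows: TGACG, the core of the X2 box read by CREB and ATF1, CCAAT, the core of the Y box read by NF-Y (ATTGG on the other strand), GAAANNGAA, the core of an interferon-stimulated response element, and GGGANTTCC, the core of a kappa B element. B2m, H2-K1 and H2-D1 each held TGACG followed, after 20 bases, by ATTGG. The 30 bases from the first to the last letter of this arrangement are shown for the 3 genes, with both cores in capitals, and for Tap1 the 30 bases that begin at its own TGACG.
B2m: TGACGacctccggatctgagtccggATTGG
H2-K1: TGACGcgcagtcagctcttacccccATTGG
H2-D1: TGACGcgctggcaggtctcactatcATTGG
Tap1: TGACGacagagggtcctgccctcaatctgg
The B2m stretch is chr2:122147609-122147638 on the plus strand (78 to 49 bases before the start), that of H2-K1 chr17:34000359-34000388 on the minus strand (41 to 12 bases before), that of H2-D1 chr17:35262993-35263022 on the plus strand (101 to 72 bases before) and that of Tap1 chr17:34187470-34187499 on the plus strand (86 to 57 bases before). In GENCODE M21 the H2-D1 stretch lies within the first exon of a longer H2-D1 transcript, the Tap1 stretch within an exon of a transcript of Psmb9, the neighbour on the other strand, and the stretches of B2m and H2-K1 lie upstream of the genes.

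TGACG alone was found in 20.8% of the 32851 promoter windows of all genes, CCAAT or ATTGG alone in 37.4% and both cores anywhere in a window in 7.73%. The arrangement with the spacing of B2m was found in 31 windows (0.0944%), those of 27 genes, among them H2-M3, a non-classical class I gene. The spacing was taken from the members, so this share describes them and supports nothing. Tap1 held TGACG and, at 222 bases before the start, CCAAT, and Tapbp held ATTGG at 248 and 165 bases before the start and no TGACG. A longer B2m stretch runs from 149 to 39 bases before the start (chr2:122147538-122147648, plus strand) and shows, in capitals and from left to right, the interferon element and both SXY cores.
B2m upstream: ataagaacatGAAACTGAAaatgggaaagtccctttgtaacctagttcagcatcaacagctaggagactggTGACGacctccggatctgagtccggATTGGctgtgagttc
GAAANNGAA was found in 8.56% of all windows and, among the 5 member windows, in that of B2m. GGGANTTCC was found in 1.68% of all windows and in none of the 5. For either motif, a window without a match lacks only these exact letters. The windows of H2-K1 and H2-D1 hold ggggattcccc and tttcacttc, which resemble the kappa B and interferon motifs but do not match the strings searched. The B2m window holds gggaaagtccc, which likewise resembles the kappa B motif without matching the string. Over the 240 aligned bases that their windows share, H2-K1 and H2-D1 were identical at 211 (87.9%). The other pairs of member windows with over 200 aligned bases were identical at 52.2% to 53.9%.

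**Figure D1:**
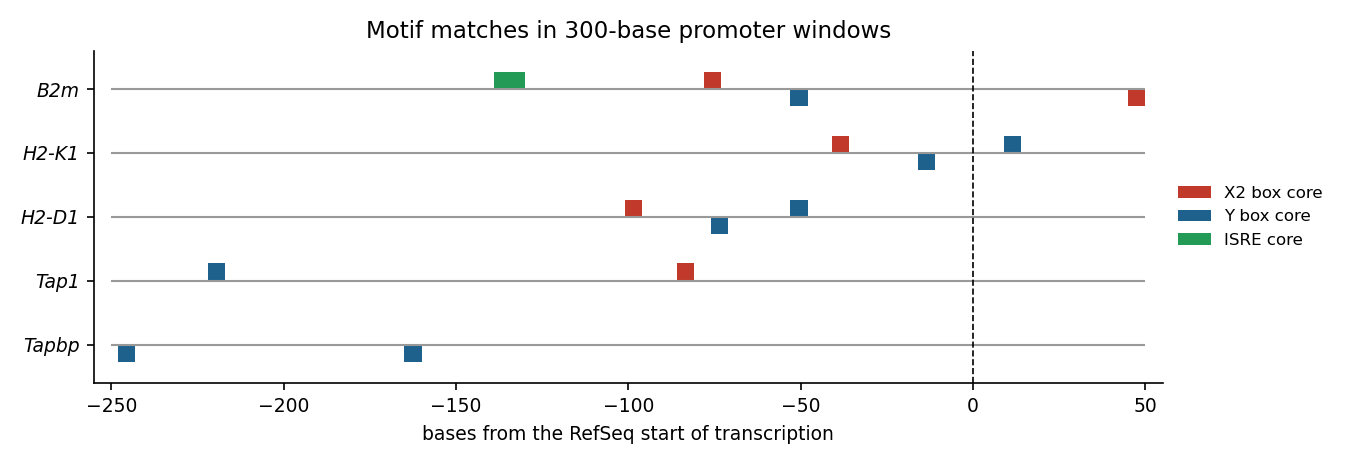
Motif matches in the promoter windows of 5 members; the horizontal axis is the distance in bases from the RefSeq start (dashed line) and marks above or below each line are matches on the gene's own or the other strand. B2m, H2-K1 and H2-D1 share an X2 core followed after 20 bases by a Y core on the other strand, at differing distances from the start.

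All 4 libraries held high levels of B2m, H2-K1, H2-D1 and Tapbp transcripts, and B2m led the members in each. In KO and WT, Tap1, Tap2 and Nlrc5 were mid-range, between percentiles 38.9 and 59.3 of measured genes. B2m ranked 16 among measured genes by FPKM in KO and 16 in WT ILC3s, and it ranked 2 in the CD93-positive library and 1 in the CD93-negative library. The 7 members together took 0.956% of all FPKM in KO and 0.917% in WT ILC3s, and 3.87% in the CD93-positive library and 3.84% in the CD93-negative library. None of the 7 was 2-fold apart in either pair on the log2(FPKM + 1) scale.

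In KO ILC3s the order of levels was B2m, H2-D1, H2-K1, Tapbp, Nlrc5, Tap1 and Tap2, and the counting intervals of Tap1 and Tap2 overlapped. In WT ILC3s it was B2m, H2-K1, H2-D1, Tapbp, Nlrc5, Tap2 and Tap1, and those of Nlrc5 and Tap2 overlapped. The CD93-positive and CD93-negative libraries had the same order, B2m, H2-D1, H2-K1, Tapbp, Tap1, Tap2 and Nlrc5, with no overlap between neighbours. FPKM is per length, so these levels can be ranked within a library.

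**Figure D2:**
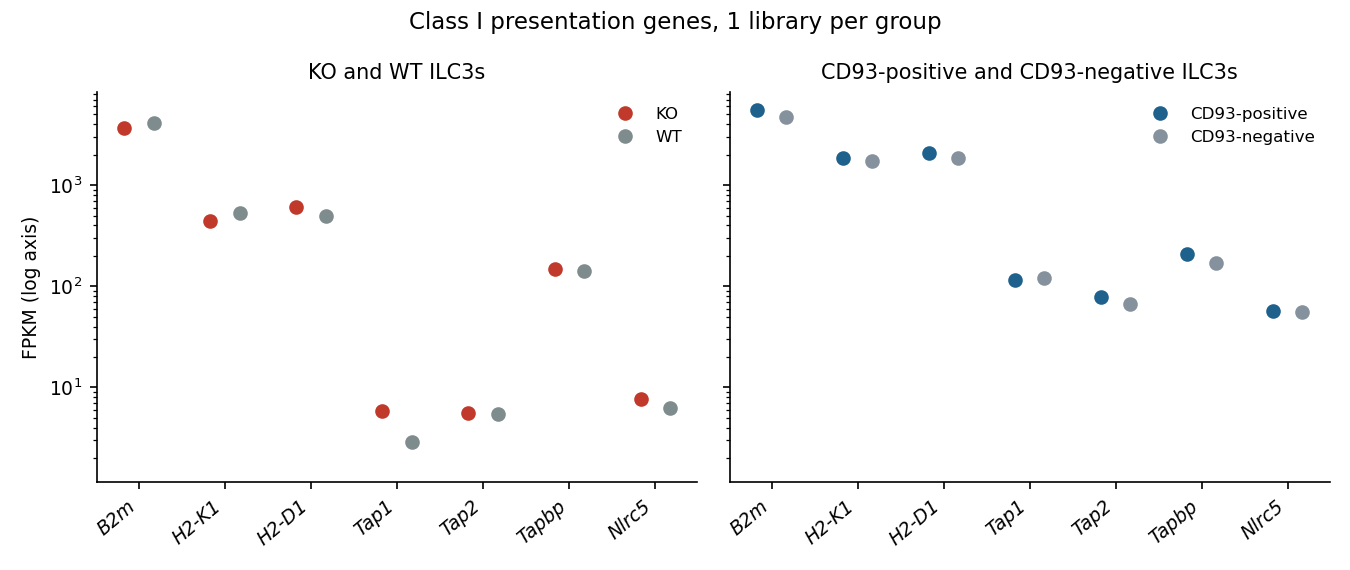
FPKM (log axis) of the 7 members in KO and WT ILC3s (left) and in CD93-positive and CD93-negative ILC3s (right), 1 library per group; the 95% counting intervals are about as small as the points. B2m is the highest member in all 4 libraries, and Tap1 at 5.88 FPKM in KO against 2.92 FPKM in WT is the widest gap within a pair.

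B2m is on chromosome 2 (ENSMUSG00000060802.8, 122147686 to 122153083, plus strand in mm10). It had 3659 FPKM in KO ILC3s, against 4099 FPKM in WT ILC3s, from 84966 reads in KO and 91963 reads in WT. The KO library was 1.12-fold lower (95% Clopper-Pearson counting interval 1.11 to 1.13). That sign depends on the scaling: brought to a common FPKM sum, the KO over WT ratio was 1.01. B2m had 5554 FPKM in CD93-positive ILC3s, against 4719 FPKM in CD93-negative ILC3s, and the ratio was 1.18 (1.16 to 1.19), and 1.04 with a common sum. None of its 811 windows of 50 bases of transcript occurred letter for letter in another gene. In bulk samples like these, fewer cells of a type and less RNA per cell cannot be told apart.

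The heavy chain genes H2-K1 and H2-D1 went opposite ways in the KO and WT pair. H2-K1 is on chromosome 17 (ENSMUSG00000061232.16, 33996017 to 34000347, minus strand), and H2-D1 lies on the same chromosome (ENSMUSG00000073411.11, 35262730 to 35267499, plus strand). H2-K1 had 445 FPKM in KO ILC3s, against 525 FPKM in WT ILC3s, 1.18-fold lower in KO (1.16 to 1.20). H2-D1 had 608 FPKM in KO ILC3s, against 494 FPKM in WT ILC3s, a ratio of 1.23 (1.21 to 1.25). The H2-D1 to H2-K1 ratio, which no library scaling alters, was 1.37 (1.35 to 1.39) in KO and 0.941 (0.928 to 0.955) in WT ILC3s. Together they held 1052 FPKM in KO and 1019 FPKM in WT ILC3s, a ratio of 1.03. Of measured genes within 0.5 log2 units of their level, 62.4% of 101 genes were at least as far apart as H2-K1 and 51.1% of 88 genes at least as far apart as H2-D1.

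In the CD93 pair both heavy chain genes were a little higher in the CD93-positive library as deposited. H2-K1 had 1839 FPKM in CD93-positive ILC3s, against 1729 FPKM in CD93-negative ILC3s, and the ratio was 1.06 (1.05 to 1.08). H2-D1 had 2063 FPKM in CD93-positive ILC3s, against 1860 FPKM in CD93-negative ILC3s, and the ratio was 1.11 (1.10 to 1.12). With a common FPKM sum these ratios were 0.942 and 0.982, so the direction of each turned with the scaling. The H2-D1 to H2-K1 ratio was 1.12 (1.11 to 1.13) in CD93-positive and 1.08 (1.06 to 1.09) in CD93-negative ILC3s.

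Class I heavy chain genes are near copies of each other, and both are reported with that limit. Of the 3457 windows of 50 bases in H2-K1 transcripts, 9.63% occurred in another H2 gene and 4.08% in H2-D1, and of the 2591 windows of H2-D1, 10.9% occurred in another H2 gene. The sources used here do not give how the authors' counting treated reads that fit several of these genes. For H2-K1 and Tapbp in KO and WT, FPKM times the GENCODE M21 length did not give whole reads, so their reads there (35282 in KO and 40217 in WT for H2-K1, 14596 in KO and 13526 in WT for Tapbp) and intervals are approximate.

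The transporter genes lie close together on chromosome 17, Tap1 at 34187553 to 34197225 (ENSMUSG00000037321.17) and Tap2 at 34203527 to 34216321 (ENSMUSG00000024339.12), both on the plus strand. Tap1 was the member with the widest gap of all. It had 5.88 FPKM in KO ILC3s, against 2.92 FPKM in WT ILC3s, from 869 reads in KO and 417 reads in WT, a ratio of 2.01 (1.79 to 2.27). On the log2(FPKM + 1) scale the difference was 0.81, under the 2-fold limit, which the ratio without a pseudocount passes. With a common FPKM sum the log2 ratio was 1.18. Tap2 had 5.56 FPKM in KO ILC3s, against 5.47 FPKM in WT ILC3s, a ratio of 1.02 whose interval (0.902 to 1.15) spans 1. The Tap1 to Tap2 ratio was 1.06 (0.949 to 1.18) in KO and 0.533 (0.468 to 0.607) in WT ILC3s.

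A gap the size of that of Tap1 was common in this pair: of 2446 measured genes within 0.5 log2 units of its level, 33.3% were at least as far apart. Of all measured genes of the pair, 16.6% lay 2-fold or more above WT and 12.7% 2-fold or more below it, 29.3% in all, and 0 of the 7 members did. Tap1 shares 212 exon bases (3.87% of its length) with Psmb9 on the other strand, and the sources used here do not give whether the counting used strand. Psmb9 had 12.0 FPKM in KO ILC3s, against 13.4 FPKM in WT ILC3s.

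In the CD93 pair Tap1 lay above Tap2 in both libraries. Tap1 had 116 FPKM in CD93-positive ILC3s, against 120 FPKM in CD93-negative ILC3s, and the ratio was 0.967 (0.936 to 0.998). Tap2 had 78.9 FPKM in CD93-positive ILC3s, against 67.3 FPKM in CD93-negative ILC3s, and the ratio was 1.17 (1.12 to 1.23). Tap1 was the only member below the CD93-negative library as deposited. The Tap1 to Tap2 ratio was 1.46 (1.41 to 1.53) in CD93-positive and 1.78 (1.70 to 1.86) in CD93-negative ILC3s. Of all measured genes of this pair, 2.49% lay 2-fold or more above the CD93-negative library and 1.94% 2-fold or more below it, 4.43% in all, and 0 of the 7 members did. Tap2 shares 533 exon bases with the transcript Gm15821 and 165 with Gm20496, both on the other strand.

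Tapbp (ENSMUSG00000024308.15, chromosome 17, 33915899 to 33929292, plus strand) was the fourth highest member in every library, below the light and heavy chain genes and above the transporter genes. It had 149 FPKM in KO ILC3s, against 143 FPKM in WT ILC3s, a ratio of 1.04 (1.02 to 1.07), and was the median member of that pair. It had 210 FPKM in CD93-positive ILC3s, against 169 FPKM in CD93-negative ILC3s, and the ratio was 1.24 (1.20 to 1.28), the widest gap among the members of this pair and 1.10 with a common sum. The Tapbp to Tap1 ratio was 25.4 (23.7 to 27.2) in KO and 49.0 (44.4 to 54.1) in WT ILC3s, and 1.81 (1.76 to 1.87) in CD93-positive and 1.41 (1.37 to 1.46) in CD93-negative ILC3s. Of the exon bases of Tapbp, 24.9% are shared with the antisense gene Gm19412.

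Nlrc5 (ENSMUSG00000074151.13, chromosome 8, 94434356 to 94527272, plus strand) was the regulator among the members. It had 7.64 FPKM in KO ILC3s, against 6.24 FPKM in WT ILC3s, from 1753 reads in KO and 1383 reads in WT, a ratio of 1.22 (1.14 to 1.31). It had 57.4 FPKM in CD93-positive ILC3s, against 56.1 FPKM in CD93-negative ILC3s, and the ratio was 1.02 (0.987 to 1.06), and 0.994 once the median gene ratio was set to 1. In KO over WT the counting intervals of H2-D1, Tap1, Tapbp and Nlrc5 lay above 1 as deposited, those of B2m and H2-K1 below 1, and that of Tap2 spanned it.

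**Figure D3:**
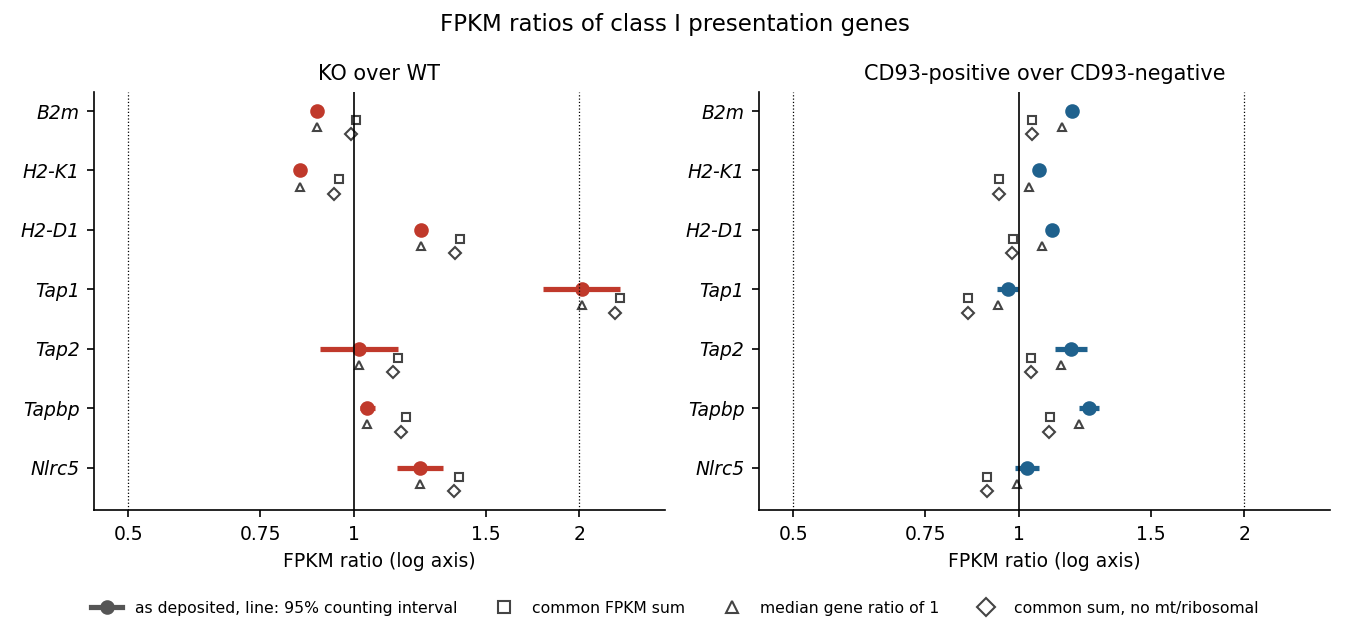
FPKM ratio (log axis) of each member, KO over WT (left) and CD93-positive over CD93-negative (right), with 95% counting intervals as lines and 3 other scalings as open symbols; dotted lines mark 2-fold. Tap1 in KO over WT stands at 2.01 and the other members of that pair between 0.848 and 1.23; in the CD93 pair all 7 lie between 0.967 and 1.24, and a common FPKM sum moves H2-K1, H2-D1 and Nlrc5 below 1.

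The median log2(FPKM + 1) difference of the 7 members was 0.06 in KO over WT, with a range of -0.24 to 0.81, 5 above 0 and 2 below. The median over all measured genes of that pair was 0.01, with quartiles of -0.53 and 0.63. In CD93-positive over CD93-negative the members' median was 0.15, with a range of -0.05 to 0.31, 6 above 0 and 1 below. There the median of all measured genes was 0.04, with quartiles of -0.18 and 0.26. Bringing libraries to a common FPKM sum moved every log2 ratio by 0.17 in KO over WT and by -0.18 in CD93-positive over CD93-negative, and the members' medians became 0.23 and -0.03.

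**Figure D4:**
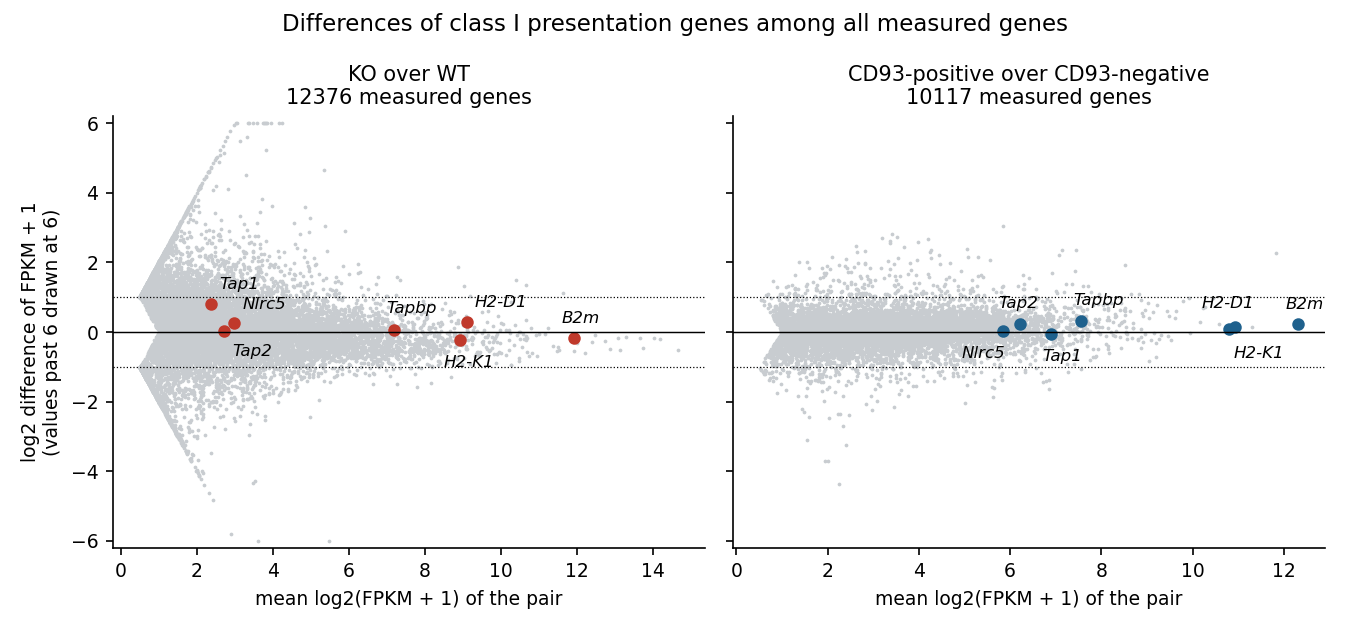
log2 difference of FPKM + 1 against the mean level of the pair for all measured genes (grey) and the 7 members (coloured), with dotted lines at 2-fold. The members lie within the dotted lines in both pairs; in KO over WT, where 29.3% of all genes lie outside them, Tap1 at 0.81 is nearest to a line.

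Other genes of the pathway were taken as lists chosen by function, not by how they differed. Beside H2-K1 and H2-D1, mice have many class I heavy chain relatives, among them the H2-Q and H2-T genes and the lipid presenter Cd1d1. Of 15 measured relatives in KO and WT, 5 were 2-fold or more above WT in KO and 2 were 2-fold or more below it (of all measured genes 16.6% and 12.7%), with a median difference of 0.40. The higher ones were Cd1d1 (11.04 FPKM in KO and 1.89 FPKM in WT), Mr1, which presents vitamin B metabolites (3.16 FPKM in KO and 0.968 FPKM in WT), H2-M5 (2.49 FPKM in KO and 0 FPKM in WT), Fcgrt, the neonatal Fc receptor (1.83 FPKM in KO and 0.0182 FPKM in WT), and Hfe, a regulator of iron uptake (1.39 FPKM in KO and 0.172 FPKM in WT). The lower ones were H2-T24, with 0 reads in the KO library, against 359 reads in the WT library, and H2-Q2, with 1 read in KO and 112 in WT. Against a floor of 3 reads in the KO library, H2-T24 was at least 124-fold lower, a bound that covers counting error only.

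The relatives at higher levels were closer together in that pair. H2-Q6 had 192 FPKM in KO ILC3s, against 274 FPKM in WT ILC3s. H2-T23, which encodes Qa-1, a ligand of NKG2A, had 100.3 FPKM in KO ILC3s, against 86.9 FPKM in WT ILC3s. The 11 tabulated H2-Q and H2-T genes summed to 410 FPKM in KO and 483 FPKM in WT ILC3s. In the CD93 pair 0 of 13 measured relatives was 2-fold apart on the log2(FPKM + 1) scale as deposited. With a common FPKM sum 1 was 2-fold or more lower. The median was 0.09 as deposited and -0.08 with a common FPKM sum. The deposited ratios of the low genes H2-Q1 and Cd1d1 did pass 2-fold without the pseudocount, in opposite directions. H2-Q1 had 2.09 FPKM in CD93-positive ILC3s, against 0.83 FPKM in CD93-negative ILC3s. Cd1d1 had 1.46 FPKM in CD93-positive ILC3s, against 3.37 FPKM in CD93-negative ILC3s. H2-Q6 had 978 FPKM in CD93-positive ILC3s, against 1000 FPKM in CD93-negative ILC3s, and H2-T23 had 430 FPKM in CD93-positive ILC3s, against 397 FPKM in CD93-negative ILC3s. Reads of H2-Q and H2-T genes can be split among near copies, so each of these values is uncertain.

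Proteins that fold and load class I molecules included the chaperones calnexin (Canx) and calreticulin (Calr), the oxidoreductase Pdia3 and the trimming peptidase Erap1. Of 7 measured loading partners 0 was 2-fold apart in either pair (of all measured genes 29.3% in KO over WT and 4.43% in the CD93 pair). The median was -0.05 in KO over WT (0.11 with a common FPKM sum) and 0.25 in CD93-positive over CD93-negative (0.08 with a common FPKM sum). The chaperone Hspa5 was the highest of them in both pairs, with 1153 FPKM in KO ILC3s, against 1106 FPKM in WT ILC3s, and 376 FPKM in CD93-positive ILC3s, against 315 FPKM in CD93-negative ILC3s. Canx had 521 FPKM in KO ILC3s, against 810 FPKM in WT ILC3s. Calr had 361 FPKM in CD93-positive ILC3s, against 222 FPKM in CD93-negative ILC3s, and Pdia3 had 237 FPKM in CD93-positive ILC3s, against 173 FPKM in CD93-negative ILC3s. Erap1 differed little, at 11.2 FPKM in KO and 11.6 FPKM in WT ILC3s.

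The immunoproteasome, whose subunits Psmb8, Psmb9 and Psmb10 replace constitutive ones and favour peptides that bind class I, lay above the CD93-negative library in 5 of 5 listed genes as deposited and in 4 of 5, all but Psmb9, with a common FPKM sum. Psmb8 had 86.8 FPKM in CD93-positive ILC3s, against 62.9 FPKM in CD93-negative ILC3s. Psmb10 had 106 FPKM in CD93-positive ILC3s, against 70.8 FPKM in CD93-negative ILC3s. Psme2, a subunit of the PA28 activator, had 157 FPKM in CD93-positive ILC3s, against 97.6 FPKM in CD93-negative ILC3s. The list's median was 0.46 with 0 of 5 genes past 2-fold, and the constitutive counterparts had a median of 0.43, also with 0 of 5 past 2-fold. Of all measured genes of this pair 4.43% were past 2-fold, and their median was 0.04. Each immunoproteasome subunit was also set against the constitutive one it replaces. The Psmb9 to Psmb6 ratio was 0.585 (0.543 to 0.631) in CD93-positive and 0.745 (0.686 to 0.810) in CD93-negative ILC3s, with intervals apart. The Psmb8 to Psmb5 ratio was 1.16 (1.07 to 1.26) in CD93-positive and 1.22 (1.12 to 1.35) in CD93-negative ILC3s. The Psmb10 to Psmb7 ratio was 5.61 (5.16 to 6.10) in CD93-positive and 5.52 (4.99 to 6.12) in CD93-negative ILC3s. In KO over WT 29.3% of all measured genes were past 2-fold. There the immunoproteasome list had a median of -0.14 (0.02 with a common FPKM sum), with Psme2 past 2-fold (0.945 FPKM in KO and 4.02 FPKM in WT ILC3s). The constitutive list had a median of -0.42, with the activator Psme3 past 2-fold (3.65 FPKM in KO and 11.1 FPKM in WT ILC3s).

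Cytosolic peptidases trim peptides before transport. Of 4 measured in KO and WT and 5 in the CD93 pair 0 was 2-fold apart (of all measured genes 29.3% and 4.43%). The medians were 0.36 in KO over WT and 0.20 in CD93-positive over CD93-negative (0.54 and 0.04 with a common FPKM sum). Tpp2 had 21.1 FPKM in KO ILC3s, against 12.3 FPKM in WT ILC3s, and Npepps had 20.1 FPKM in CD93-positive ILC3s, against 17.3 FPKM in CD93-negative ILC3s.

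Factors that act on class I promoters lay under the 2-fold limit on the log2(FPKM + 1) scale in both pairs as deposited. Of 14 measured in KO and WT and 16 in the CD93 pair, 0 was past the limit (of all measured genes 29.3% and 4.43%). The medians were 0.02 and -0.02. With a common FPKM sum 1 was past the limit in KO over WT. Among the measured factors, the KO over WT ratios of 3 low ones did pass 2-fold without the pseudocount. Creb1, a factor of the X2 box, had 2.38 FPKM in KO ILC3s, against 5.49 FPKM in WT ILC3s, 2.31-fold lower in KO (2.13 to 2.499). Irf2, which binds interferon response elements, had 3.95 FPKM in KO ILC3s, against 1.78 FPKM in WT ILC3s, a ratio of 2.21 (1.95 to 2.52). Nfya, a subunit of NF-Y, had 1.47 FPKM in KO ILC3s, against 0.618 FPKM in WT ILC3s, a ratio of 2.37 (1.91 to 2.97). Irf1, which binds the same elements as Irf2, had 29.2 FPKM in KO ILC3s, against 23.7 FPKM in WT ILC3s, and 56.1 FPKM in CD93-positive ILC3s, against 58.1 FPKM in CD93-negative ILC3s. Nfkb1 and Rela, NF-kB subunits that bind kappa B elements, were among the highest of the list, with Nfkb1 at 23.2 FPKM in KO and 21.9 FPKM in WT ILC3s and Rela at 94.5 FPKM in CD93-positive and 96.8 FPKM in CD93-negative ILC3s. Stat2 and Rfx5 were under 1 FPKM in both KO and WT ILC3s and so not counted as measured there. Stat2 had 0.944 FPKM in KO from 151 reads and 0 reads in WT, at least 48.6-fold higher against a floor of 3 reads, a bound that covers counting error only. In the CD93 pair Stat2 had 98.3 FPKM in CD93-positive and 104.5 FPKM in CD93-negative ILC3s. Rfx5, a subunit of the RFX complex, had 0.00674 FPKM in KO from 1 read and 0.0907 FPKM in WT from 13 reads. Rfx5 had 6.55 FPKM in CD93-positive ILC3s, against 4.999 FPKM in CD93-negative ILC3s.

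Interferon receptors and their signalling genes had 1 of 9 measured members past 2-fold in the CD93 pair, where 4.43% of all measured genes were. This was Ifngr2, the second chain of the interferon gamma receptor, with 15.0 FPKM in CD93-positive ILC3s, against 4.46 FPKM in CD93-negative ILC3s, and the ratio was 3.38 (2.88 to 3.98). In KO and WT 0 of 9 was past the limit, against 29.3% of all measured genes. The medians were 0.19 in KO over WT and 0.07 in CD93-positive over CD93-negative, and -0.09 in the CD93 pair with a common FPKM sum.

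Interferon-stimulated genes outside the class I pathway were past 2-fold in KO over WT about as often as all measured genes. Of 23 measured, 2 were 2-fold or more above WT in KO and 5 were 2-fold or more below it (of all measured genes 16.6% and 12.7%), with a median of -0.05 as deposited and 0.12 with a common FPKM sum. The higher ones were Gbp2, a guanylate-binding GTPase (61.2 FPKM in KO and 28.3 FPKM in WT), and Usp18, which removes ISG15 from proteins (3.46 FPKM in KO and 0 FPKM in WT). The lower ones were Isg15, a ubiquitin-like modifier (12.7 FPKM in KO and 33.6 FPKM in WT), Ifit3 (0.488 FPKM in KO and 7.53 FPKM in WT), Mx1 (0 FPKM in KO and 2.48 FPKM in WT), Oas1a (3.22 FPKM in KO and 10.4 FPKM in WT) and Rtp4 (8.53 FPKM in KO and 23.2 FPKM in WT). In CD93-positive over CD93-negative 18 of 21 measured genes lay below 0 and 3 above, with a median of -0.29 as deposited and -0.47 with a common FPKM sum. Over all measured genes of this pair the median was 0.04 as deposited, with quartiles of -0.18 and 0.26. As deposited 1 was 2-fold or more lower (of all measured genes 1.94%), and 2 were with a common FPKM sum. The 1 as deposited was Ifit3, with 129 FPKM in CD93-positive ILC3s, against 272 FPKM in CD93-negative ILC3s. The members of the class I pathway had 6 of 7 values above 0 in the same pair as deposited, and 3 of these turned with a common FPKM sum.

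**Figure D5:**
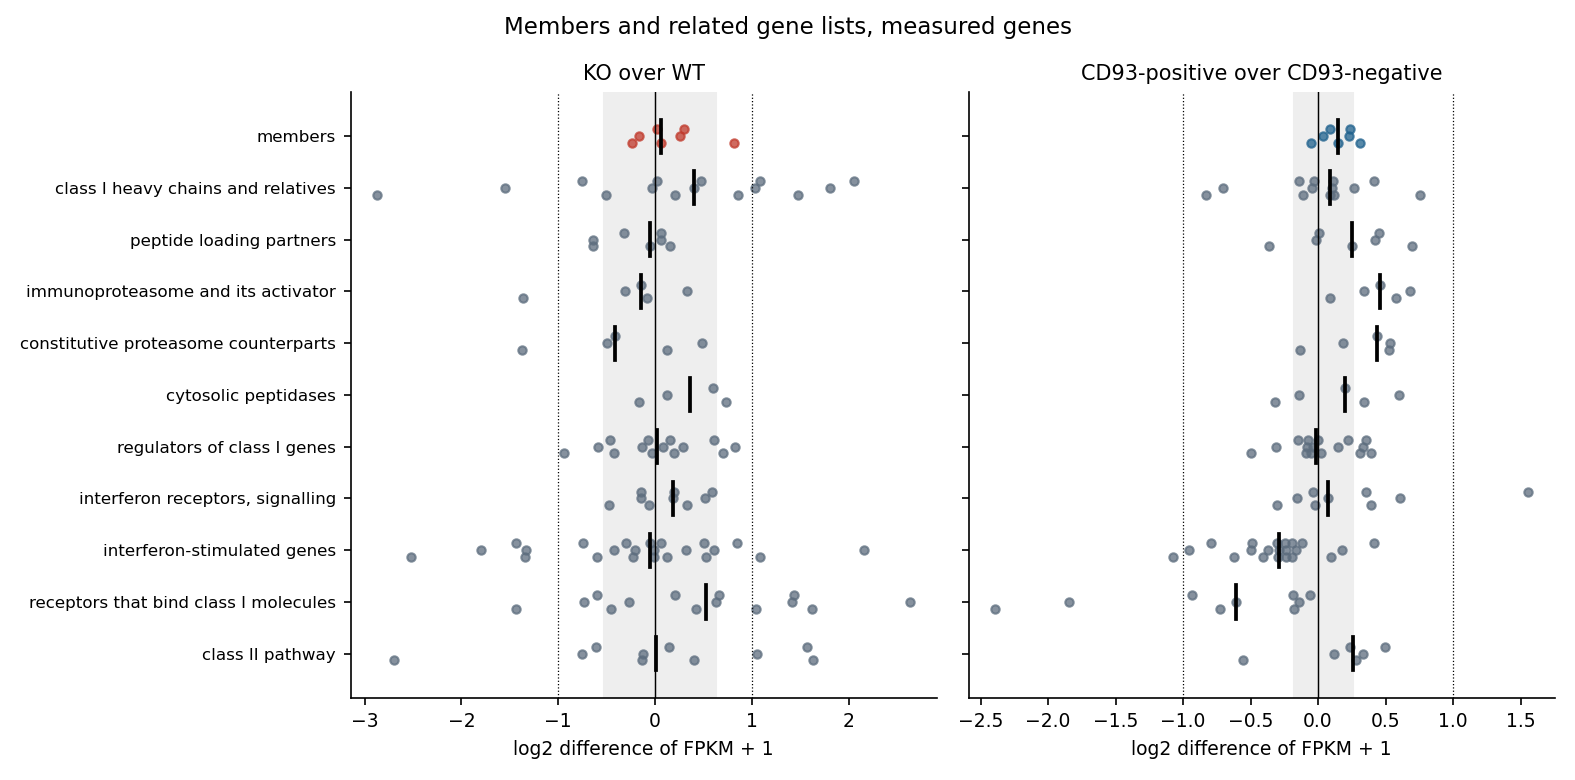
log2 differences of FPKM + 1 of the members and of 10 related lists (1 point per measured gene, black bars are medians, grey bands the middle 50% of all measured genes, dotted lines 2-fold), KO over WT on the left and CD93-positive over CD93-negative on the right; the horizontal scales differ. The members span -0.24 to 0.81 and -0.05 to 0.31. The list of receptors for class I molecules and that of interferon-stimulated genes lie mostly below 0 in the CD93 pair.

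Receptors that bind class I molecules sit on T and NK cells and on some innate lymphoid cells. The list taken for them also holds receptors that are not established as binding classical class I molecules, among them Lilrb4a and Cd244a. The counts and medians given here include every measured receptor of the list. In the CD93 pair all 9 measured receptors lay below 0, as deposited and under each other scaling. Their median was -0.61, against 0.04 over all measured genes. As deposited 2 were 2-fold or more below the CD93-negative library (as were 1.94% of all measured genes), and 3 with a common FPKM sum. The 2 were Klrd1, which encodes CD94, with 1.40 FPKM in CD93-positive ILC3s, against 11.6 FPKM in CD93-negative ILC3s, and Klra5, a Ly49 receptor, with 1.65 FPKM in CD93-positive ILC3s, against 8.49 FPKM in CD93-negative ILC3s. In KO over WT 5 of 14 were 2-fold or more above WT and 1 was 2-fold or more below it (of all measured genes 16.6% and 12.7%), with a median of 0.52. Cd160 had 29.9 FPKM in KO ILC3s, against 10.4 FPKM in WT ILC3s, and Lilrb4a had 11.7 FPKM in KO ILC3s, against 3.12 FPKM in WT ILC3s. Klrd1 (4.13 FPKM in KO and 0.928 FPKM in WT), Cd8b1 (2.87 FPKM in KO and 0.879 FPKM in WT) and Klra9 (5.21 FPKM in KO and 0 FPKM in WT) were the other higher ones, and Klra3 was the lower one, with 0 FPKM in KO and 1.70 FPKM in WT ILC3s.

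Genes of the class II pathway, which presents extracellular proteins, had 3 of 10 measured members 2-fold or more above WT in KO and 1 that was 2-fold or more below it (of all measured genes 16.6% and 12.7%), with a median of 0.01. Ciita, the class II counterpart of Nlrc5, had 1.08 FPKM in KO ILC3s, against 0.00402 FPKM in WT ILC3s, from 279 reads in KO and 1 read in WT. The other higher ones were H2-DMa (9.73 FPKM in KO and 2.45 FPKM in WT) and H2-Oa (4.99 FPKM in KO and 1.02 FPKM in WT), and H2-DMb1 was lower (0 FPKM in KO and 5.50 FPKM in WT). In the CD93 pair 0 of 6 measured members was 2-fold apart as deposited (of all measured genes 4.43%), with a median of 0.26. With a common FPKM sum the median was 0.11, and 1 was past 2-fold when mitochondrial and ribosomal protein genes were left out of that sum.

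Sums of markers of other cells differed between the groups, and other cells carry class I molecules too. Of all measured genes, 29.3% were past 2-fold in KO over WT and 4.43% in CD93-positive over CD93-negative, with medians of 0.01 and 0.04. Markers of the exocrine pancreas summed to 1215 FPKM in KO and 4.56 FPKM in WT ILC3s, with 12 of 12 past 2-fold and 8 at 0 in WT. Sums were also higher in KO for T cells (1416 FPKM in KO and 957 FPKM in WT, 5 of 10 past 2-fold), B and plasma cells (4667 FPKM in KO and 2836 FPKM in WT, 3 of 6), NK cells and ILC1 (314 FPKM in KO and 200 FPKM in WT, 3 of 8), intestinal epithelium (1073 FPKM in KO and 296 FPKM in WT, 7 of 9) and myeloid and dendritic cells (59.2 FPKM in KO and 17.4 FPKM in WT, 5 of 5). Of these 5, 3 were higher in KO, and the dendritic cell markers Xcr1 (0.00832 FPKM in KO and 1.72 FPKM in WT) and Cd209a (0.0234 FPKM in KO and 3.85 FPKM in WT) were lower. In the CD93 pair the pancreas markers summed to 467 FPKM in CD93-positive and 720 FPKM in CD93-negative ILC3s, with 11 of 11 below 0 and 0 past 2-fold, and those of intestinal epithelium to 30.0 FPKM in CD93-positive and 52.7 FPKM in CD93-negative ILC3s, with 6 of 7 below 0. Sums were also lower in CD93-positive ILC3s for T cells (25.8 FPKM in CD93-positive and 63.1 FPKM in CD93-negative, 3 of 4 measured past 2-fold). They were lower too for NK cells and ILC1 (460 FPKM in CD93-positive and 884 FPKM in CD93-negative, 4 of 8 past 2-fold). The T cell sum was mostly Lck (23.1 FPKM in CD93-positive and 53.2 FPKM in CD93-negative), and that of NK cells and ILC1 mostly Gzmb. Endothelium markers summed to 99.1 FPKM in CD93-positive and 67.2 FPKM in CD93-negative. Of 3 measured endothelium markers 2 lay above 0, 1 of them past 2-fold, and 1 below. The ILC3 markers summed to 12990 FPKM in KO and 17252 FPKM in WT ILC3s, and to 8985 FPKM in CD93-positive and 2444 FPKM in CD93-negative ILC3s, mostly from Il22. The part of other cells in the members' values was not tested.

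The label of the CD93 sort was checked on Cd93, with 155.0 FPKM in CD93-positive ILC3s, against 79.9 FPKM in CD93-negative ILC3s. The ratio was 1.94 (1.88 to 2.00) and the log2(FPKM + 1) difference 0.95, under the 2-fold limit. Cd93 RNA was thus also plentiful in the CD93-negative library, where it ranked 448 among measured genes. The genotype labels have no check of this kind, since the values used here held none for Il17d. Genes most like the members were sought by the distance between the 2 log2 differences (KO over WT and CD93-positive over CD93-negative) of a gene and the members' medians, over 2399 genes with at least 10 FPKM in a library of each pair. The nearest were Dstn (0.0148), Serf2 (0.0233), Qrich1 (0.0281), Fundc1 (0.0288) and Cnpy2 (0.0351). Within a distance of 0.25 there were 331 genes (13.8%), so the medians of the members lie where many genes lie.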

How the data were processed

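RNA sequencing values of 4 libraries were used as deposited. The authors deposited FPKM, in 1 table per library and 1 joint table per pair, and the joint tables held the same values as the single ones. Per the submitters' processing notes the authors used Bowtie2, featureCounts, Subread, edgeR and DESeq2 and the build mm10. The sources used here do not give their order, their versions or the annotation.

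FPKM times union exon length (GENCODE M21) gave whole multiples of a step (tolerance 0.02 reads) for 92.0% of KO, 91.9% of WT, 98.1% of CD93-positive and 98.2% of CD93-negative values. The step gave the scaling totals and the reads behind the intervals (95%, exact Clopper-Pearson for ratios and exact Poisson for levels). PCR reads are not independent molecules, so intervals and the floor of 3 reads cover counting error only. Recovery was tested on simulated data. Differences are log2 of FPKM + 1, which understates those of low genes. The list medians given in the text were the same with genes at 0 in a library set to their bound.

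Groups follow the labels. Each group had 1 library, so no replicate error and no p-value can be given. Per rule, the text names the 7 members, list genes past 2-fold or at high levels, cell markers and the 5 nearest genes by distance. Among the genes named, Creb1, Irf2, Nfya, Rfx5, Erap1, Psmb8, Psmb10, H2-Q1, H2-Q6 and H2-T23 fall outside it and were chosen after their values were seen. Psmb9, Psmb5, Psmb6 and Psmb7 fall outside it too and are named for the subunit ratios, and Psmb9 also for its overlap with Tap1. Some genes and markers are not reported here. The members and lists were chosen with earlier results of these data known. Pseudocounts of 0.1 and 5, limits of 1.5-fold and 3-fold, filters and 3 scalings were tried. Promoter windows are RefSeq's (GRCm38.p6); Tap2 and Nlrc5 had no window in that table. Python 3.11.15, numpy 2.4.6, pandas 2.3.3, scipy 1.17.1 and matplotlib 3.10.9 were used.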

Additional observations from a re-analysis of the deposited data

How the results depend on the processing

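The median log2 difference of the 7 members in KO over WT was 0.06 as reported, 0.23 with a common FPKM sum and 0.21 with a common sum without mitochondrial and ribosomal protein genes. In CD93-positive over CD93-negative it was 0.15 as reported, -0.026 with a common sum, -0.028 with the common sum without those genes and 0.10 with the median gene ratio set to 1. The number of members at least 2-fold apart in KO over WT was 0 as reported and 1, Tap1, with either common sum, at a limit of 1.5-fold and with no pseudocount, an alternative chosen after seeing the data. It stayed at 0 with pseudocounts of 0.1 and 5, the median gene ratio set to 1 and a limit of 3-fold, and in CD93-positive over CD93-negative it was 0 under every alternative run. By construction a scaling moves all genes of a pair together: the sign of B2m turned in KO over WT with the common sum, and in CD93-positive over CD93-negative those of H2-K1, H2-D1 and Nlrc5 with either common sum and that of Nlrc5 with the median ratio. No sign turned with another pseudocount or the single tables. The share of all measured genes at least 2-fold apart was 29.3% in KO over WT and 6.63% with a pseudocount of 5, and 4.43% in CD93-positive over CD93-negative, between 1.67% with a pseudocount of 5 and 8.87% with the common sum without mitochondrial and ribosomal protein genes. No paired analysis was possible because each group had 1 library. Depth limits Tap1 and Tap2 in KO and WT most, at 417 to 869 reads a library.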
